A study of Mus musculus with 12 samples.

Results

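The C/EBP and adipogenic identity factors described here are 9 transcription factor genes chosen by name for their roles: the C/EBP genes Cebpa, Cebpb, Cebpd and Cebpg, the early B cell factors Ebf1 and Ebf2, the zinc finger gene Zfp423, and the signal transducers Stat5a and Stat5b. The choice was made with earlier results of these data known. The members are 9 of the 20295 genes in the count table, and all 9 were among the 13543 genes that passed the filter on low counts. The cells were mature white adipocytes (eWAs) floated out of collagenase-digested epididymal fat (eWAT) of lean male C57/BL6J mice, with no genetic change, and kept in a hydrogel for 2 days. There were 4 groups of 3 libraries: vehicle (DMSO), 3 h of ISO (isoproterenol, which activates β-adrenergic receptors), lipase inhibitors alone (Lip), and lipase inhibitors followed by ISO (Lip+ISO). According to the study, the inhibitors were Atglistatin, which acts on ATGL, and CAY10499, which acts on HSL. The study's methods name 3 independent experiments as the source of the replicates. The study's text names another lipolytic compound once for these cells, whereas the sample labels and its results name ISO, which is used here. Flotation enriches fat cells but does not remove every other cell, and each library is a bulk sample, in which fewer cells of a type and less RNA per cell cannot be told apart.

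C/EBP proteins are basic leucine zipper factors that bind DNA as dimers. During fat cell formation C/EBPβ and C/EBPδ act early and then switch on C/EBPα, which together with PPARγ maintains the mature fat cell, while C/EBPγ is a dimer partner that lacks a strong activation domain. EBF1 and EBF2 bind near fat cell genes, with EBF2 tied to the brown and beige program, ZFP423 marks preadipocytes and restrains the thermogenic program of white fat, and STAT5A and STAT5B carry growth hormone and prolactin signals through JAK2 to the nucleus. β-Adrenergic agonists raise cAMP, which activates protein kinase A and, through it, both lipolysis and CREB, a factor that binds the cAMP response element (CRE). The lipase inhibitors hold back fatty acid release, so the 4 groups compare ISO with the lipases active and inhibited. Whether the inhibitors also alter cAMP signaling was not measured in these libraries.

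Promoter windows were printed for the C/EBP genes with the highest levels and for Stat5a, the member with the largest fall. Each runs from 250 bases before to 50 bases after a RefSeq start site on GRCm38.p6, plus strand, 5′ to 3′. Capitals mark the CRE core (TGACG, or CGTCA when it lies on the other strand), the TATA box letters TATAAA and the C/EBP core TTGCNNAA.
Cebpb, chr2:167688665-167688964: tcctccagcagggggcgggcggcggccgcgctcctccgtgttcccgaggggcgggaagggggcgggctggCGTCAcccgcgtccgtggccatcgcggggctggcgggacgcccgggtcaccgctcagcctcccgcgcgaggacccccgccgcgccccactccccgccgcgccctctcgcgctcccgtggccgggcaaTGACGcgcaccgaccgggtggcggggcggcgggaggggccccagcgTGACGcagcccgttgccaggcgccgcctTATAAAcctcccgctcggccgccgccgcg
Cebpa, chr7:35119043-35119342: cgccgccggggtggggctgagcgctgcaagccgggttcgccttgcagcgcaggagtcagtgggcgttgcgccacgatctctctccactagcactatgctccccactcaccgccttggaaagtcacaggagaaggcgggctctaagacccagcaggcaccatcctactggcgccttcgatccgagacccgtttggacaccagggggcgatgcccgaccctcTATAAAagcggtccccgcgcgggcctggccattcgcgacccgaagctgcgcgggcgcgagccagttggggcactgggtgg
Stat5a, chr11:100860234-100860533: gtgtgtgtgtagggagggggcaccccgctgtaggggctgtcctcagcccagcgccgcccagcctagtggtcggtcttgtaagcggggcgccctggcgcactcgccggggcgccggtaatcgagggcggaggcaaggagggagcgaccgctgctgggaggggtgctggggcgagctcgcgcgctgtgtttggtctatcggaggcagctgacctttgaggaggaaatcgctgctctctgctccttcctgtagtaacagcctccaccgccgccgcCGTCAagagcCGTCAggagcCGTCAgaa
The Cebpb window held 3 CRE cores, 180, 53 and 7 bases before the start site, and the letters TATAAA from 21 bases after it. No CRE core was found in the Cebpa window, where TATAAA began 30 bases before the start site. The Stat5a window held 3 CRE cores on the minus strand, 22, 32 and 42 bases after the start site; it is the downstream one of 2 Stat5a windows, and no searched motif was found in the other. On both strands, 20.8% of 32851 RefSeq promoter windows of this length held at least 1 CRE core and 1.03% held 3 or more. TATAAA was present in 13.6% of them and the C/EBP core in 10.8%. The full CRE TGACGTCA (1.79% of windows), the STAT letters TTCNNNGAA (8.3%) and the direct repeat that PPAR binds (DR1, 0.0396%) were in none of the members' windows. A match is a description of letters and not a bound site. The tables matched 7 of the 9 members, without Cebpd and Ebf2. Zfp423 had 2 C/EBP cores in 1 of its windows and Ebf1 had 1 CRE core in 1 of its windows, and no searched motif was found in the windows of Cebpg and Stat5b.

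The library totals ran from 22632220 to 43707557 counts, so the member with the fewest reads, Cebpd, still had 242 to 652 counts per library. Levels are given as CPM, counts brought to a common library total with edgeR's TMM factors, which ran from 0.924 to 1.07. These factors were 1.01 to 1.07 with Lip and 0.924 to 0.994 with Lip+ISO. Genes with counts numbered 15141 to 15297 with DMSO, 15501 to 15774 with ISO, 15634 to 16244 with Lip and 16356 to 17079 with Lip+ISO. The part of this difference in the members' values was not tested. Lip replicate 3 stood apart on the third principal component, at -23.1 against -6.35 to 9.62 for the other 11 libraries. The 8 adipocyte markers summed to 32578 to 41173 CPM with DMSO, 28830 to 38279 with ISO, 30117 to 35316 with Lip and 26311 to 36070 with Lip+ISO. In ISO against DMSO 1 of them was lower and 0 higher, with a list median of -0.26. Over all genes 12.3% were higher and 13.9% lower in that comparison. The 10 fibroblast and adipocyte progenitor markers summed to 385 to 1008 CPM over the 12 libraries. Of those 10 progenitor markers, 4 were higher with ISO than with DMSO, and their sums were 385 to 678 CPM with DMSO, 761 to 1008 with ISO, 506 to 546 with Lip and 467 to 646 with Lip+ISO. The 10 macrophage markers summed to 54.7 to 67.8 CPM with DMSO, 103 to 155 with ISO, 57.4 to 63.2 with Lip and 67.0 to 117 with Lip+ISO, and 6 of them were higher with ISO than with DMSO. The 10 endothelial markers summed to 133 to 252, 302 to 545, 67.4 to 218 and 102 to 299 CPM in the same order, with 1 higher with ISO, and the 6 mesothelial markers in the table to 24.8 to 56.6, 65.4 to 75.6, 14.4 to 59.8 and 41.9 to 51.8 CPM, also with 1 higher. The 8 lymphocyte markers summed to at most 1.27 CPM. No marker in these lists was at 0 in every library. The part of these other cells in the members' differences was not tested.

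**Figure D1:**
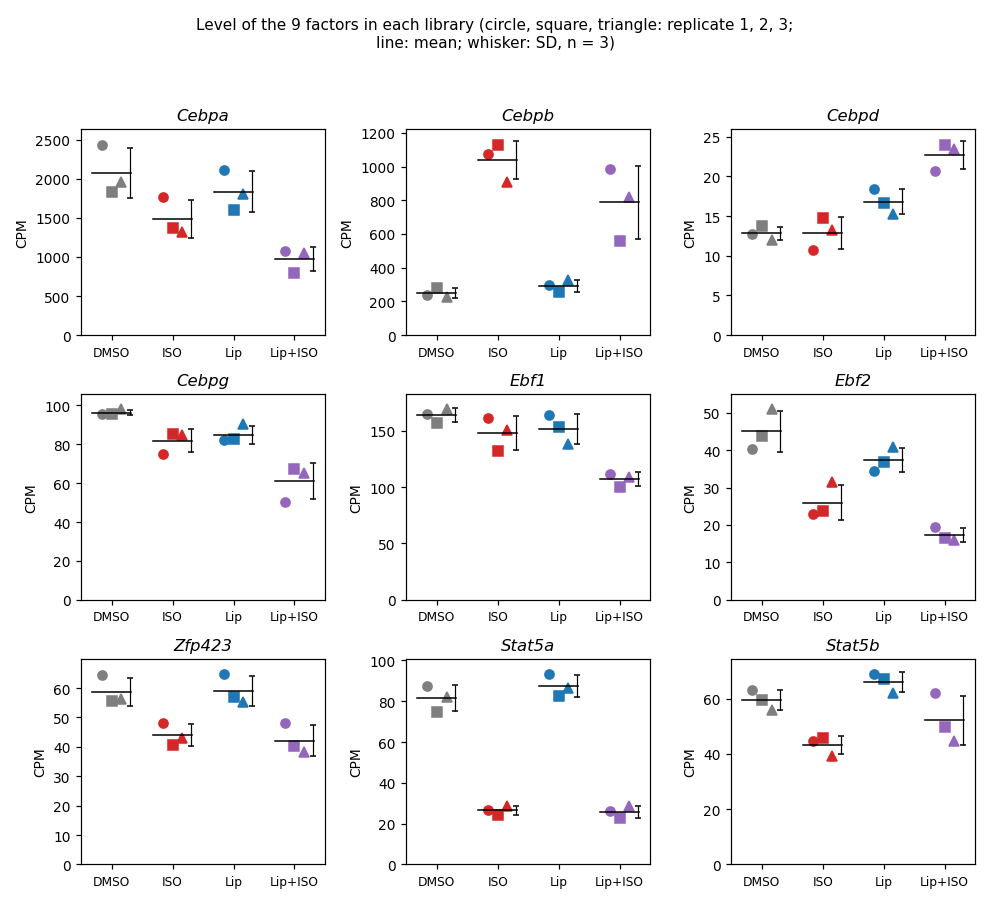
Level of each member in CPM (vertical axes, starting at 0) in every library of the 4 groups; symbols mark replicates 1, 2 and 3, lines the group mean and whiskers the SD (n = 3). Cebpb sat at 911 to 1130 CPM with ISO against 225 to 281 with DMSO, and Stat5a at 24.4 to 28.7 against 74.9 to 87.3.

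Per kb of counted exon, Cebpa stood far above the other members in vehicle-treated cells, at 786 ± 121 CPM per kb (SD, n = 3). Cebpb followed at 164 ± 18.9 CPM per kb and Ebf1 at 31.4 ± 1.19. Stat5a (21.0 ± 1.60) and Cebpg (20.5 ± 0.314) came next with overlapping libraries, as did Stat5b (12.1 ± 0.709) and Zfp423 (12 ± 0.997). Ebf2 (8.13 ± 0.984) and Cebpd (6.62 ± 0.428) were lowest, and their libraries did not overlap. With ISO the first place changed hands, Cebpb standing at 684 ± 75.0 and Cebpa at 562 ± 90.8 CPM per kb, with overlapping ranges.

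In the comparison of ISO with DMSO, which asks how β-adrenergic stimulation acts, Cebpb rose and Cebpa, Ebf2, Zfp423, Stat5a and Stat5b fell. Cebpd, Cebpg and Ebf1 did not pass the test (edgeR's quasi-likelihood F-test, with Benjamini-Hochberg adjustment over all 13543 genes and a threshold of 0.05). Thus 1 of 9 members was higher and 5 of 9 were lower, where 12.3% of all genes tested were higher and 13.9% lower. Because the members were chosen with earlier results of these data known, shares over all genes here and below are description. They do not test for an excess among the members. At a change of at least 1 log2 unit, 1 member was higher (Cebpb) and 1 lower (Stat5a), against 5.68% and 1.80% of all genes. The libraries of the groups did not overlap for 7 members, which was so for 43.3% of all genes. The members' median log2 fold change was -0.42, against 0.00 over all genes.

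The comparison of Lip+ISO with Lip asks the same with the lipases inhibited throughout, and it shares no library with the first. Here all 9 members passed, Cebpb and Cebpd higher and the other 7 lower, where 11.5% of all genes were higher and 15.8% lower. At 1 log2 unit or more these were Cebpb, higher, and Ebf2 and Stat5a, lower, against 4.19% and 3.16% of all genes. None of the 9 members had overlapping libraries, and 39.1% of all genes did not overlap. The members' median was -0.49, against -0.00 over all genes. Scaling by library totals alone moved that median over all genes to -0.115 and the counts of all genes to 1069 higher and 2968 lower, from 1562 and 2140; in ISO against DMSO it gave 1365 and 2329, from 1670 and 1878.

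**Figure D2:**
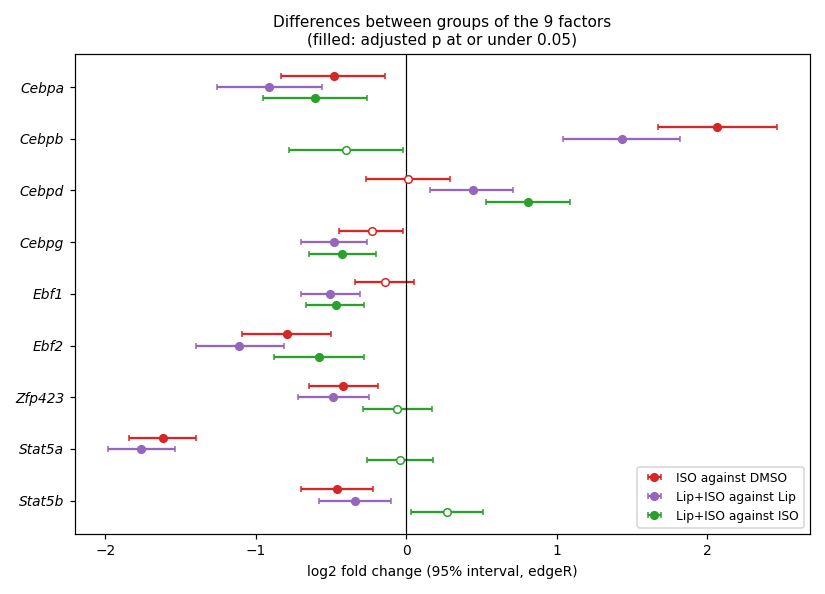
Log2 fold change (horizontal axis) of each member with its 95% interval from edgeR in 3 comparisons; filled points have an adjusted p at or under 0.05. Cebpb lies at 2.06 and 1.43 in both comparisons of ISO with its own control, and Stat5a at -1.62 and -1.76.

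Cebpb encodes C/EBPβ and is a single-exon gene (NM_009883, mm9 chr2:167514415-167515932, plus strand). Its level was 240, 281 and 225 CPM in DMSO replicates 1, 2 and 3, and 1074, 1130 and 911 CPM with ISO. It was 298, 255 and 326 CPM with Lip, and 986, 558 and 821 CPM with Lip+ISO. Every stimulated library lay above every unstimulated one, and the lowest stimulated library was Lip+ISO replicate 2. The fold change was 4.17 in ISO against DMSO (log2 2.06 ± 0.18, SE, adjusted p = 5.5e-06) and 2.69 in Lip+ISO against Lip (log2 1.43 ± 0.18, adjusted p = 5.9e-05). Macrophages also express Cebpb, and the sum of their 10 markers was 103 to 155 CPM with ISO against 54.7 to 67.8 with DMSO; their part in the rise was not tested. Both calls held in all 15 fits that left out 1 library or 1 replicate number. Between Lip+ISO and ISO the libraries overlapped and the difference of -0.40 (95% interval -0.78 to -0.02) did not pass, with an adjusted p of 0.19. In the GENCODE M1 annotation 312 of the 1504 exon bases of Cebpb are shared with Tmem189 on the other strand. Whether strand was used in counting is not given in the sources used here, so reads of Cebpb and Tmem189 cannot be told apart there.

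Cebpa encodes C/EBPα, also from a single exon (NM_007678, mm9 chr7:35904312-35906951, plus strand). With DMSO it stood at 2436, 1831 and 1956 CPM and with ISO at 1760, 1370 and 1323 CPM. With Lip it stood at 2109, 1595 and 1805 CPM and with Lip+ISO at 1078, 796 and 1053 CPM. The Lip+ISO libraries were below all others, and the ISO libraries below all DMSO libraries. The fall with ISO alone was small (log2 -0.48 ± 0.16, adjusted p = 0.041) and the call was lost in 7 of the 15 fits with libraries left out. These were without DMSO replicate 1 (-0.35, adjusted p = 0.17), DMSO replicate 3 (0.074), ISO replicate 2 (0.14), ISO replicate 3 (0.14) or Lip replicate 3 (0.0504), and without the libraries numbered 2 (0.095) or 3 (0.23). With the lipases inhibited the fall was -0.91 ± 0.16 (adjusted p = 0.00088) and held in all 15 fits. Cebpa was also lower with Lip+ISO than with ISO (-0.61 ± 0.16, adjusted p = 0.033). That call was lost without DMSO replicate 3 (0.051), ISO replicate 1 (0.10), ISO replicate 2 (0.061), Lip+ISO replicate 2 (0.11) or Lip+ISO replicate 3 (0.064), without the libraries numbered 2 (0.18) or 3 (0.14), and in a fit on the ISO and Lip+ISO libraries alone (0.059).

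Within each library, the counts per kb of Cebpb divided by those of Cebpa were 0.172, 0.267 and 0.2 with DMSO and 1.06, 1.43 and 1.20 with ISO. They were 0.246, 0.278 and 0.314 with Lip and 1.59, 1.22 and 1.36 with Lip+ISO. All 6 stimulated libraries had more Cebpb than Cebpa counts per kb and all 6 unstimulated libraries had less. The study's methods describe keeping 1 read per position per length. How that acted on these counts is not given, so ratios of counts need not equal ratios of transcripts. The difference in the mean log2 ratio was 2.54 for ISO against DMSO and 2.31 for Lip+ISO against Lip, each with an exact two-sided permutation p of 0.1, the smallest that 3 against 3 libraries can give. After adjustment over the 12 ratio comparisons made this became 0.2, so this design cannot reach 0.05. Between Lip+ISO and ISO the difference was 0.18 (exact permutation p = 0.4). Of the summed counts per kb of the 4 C/EBP genes, Cebpb made up 17.0% ± 3.12 with DMSO, 53.9% ± 3.54 with ISO, 21.1% ± 2.00 with Lip and 56.3% ± 3.71 with Lip+ISO (SD, n = 3). The corresponding share of Cebpa was 80.3% ± 3.39, 44.2% ± 3.76, 75.9% ± 2.16 and 40.8% ± 2.78.

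**Figure D3:**
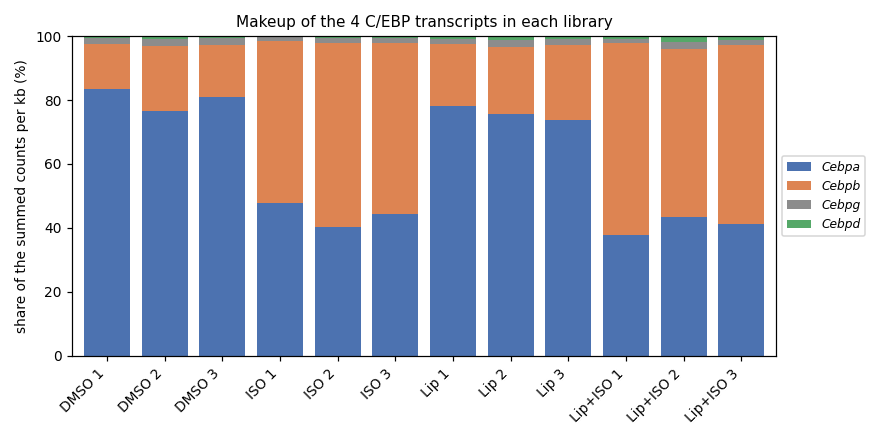
Share of each of the 4 C/EBP genes in their summed counts per kb (vertical axis, percent) in every library. Cebpb takes 50.7% to 60.2% in the 6 libraries with ISO and 14.3% to 23.2% in the other 6.

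Cebpd and Cebpg moved in opposite directions in Lip+ISO, against both Lip and ISO. Cebpd, the other early C/EBP (NM_007679, mm9 chr16:15887379-15889638, plus strand), overlaps Spidr, which runs on the minus strand. In the GENCODE M1 annotation 0 of the 1180 exon bases of Cebpd are shared with other genes. The level of Cebpd was 12.8, 13.7 and 12 CPM with DMSO and 10.7, 14.7 and 13.2 CPM with ISO. It was 18.4, 16.7 and 15.3 CPM with Lip and 20.7, 24.0 and 23.4 CPM with Lip+ISO. The DMSO and ISO libraries overlapped, and the Lip+ISO libraries were the highest. The difference was 0.01 for ISO against DMSO (95% interval -0.27 to 0.29, adjusted p = 0.97) and 0.81 ± 0.13 for Lip+ISO against ISO (adjusted p = 0.0018, held in all 15 fits). In Lip+ISO against Lip Cebpd rose by 0.44 ± 0.13 (adjusted p = 0.022). That call was lost without Lip replicate 2 (0.062), Lip replicate 3 (0.086), Lip+ISO replicate 2 (0.071) or Lip+ISO replicate 3 (0.052), without the libraries numbered 2 (0.17) or 3 (0.21), and with library totals alone (0.12).

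Cebpg, the dimer partner (NM_009884, mm9 chr7:35831441-35841585, minus strand), lies 62.7 kb from Cebpa. It was at 95.6, 95.4 and 98.0 CPM with DMSO, 75.1, 85.5 and 84.9 with ISO, 82.0, 82.7 and 90.3 with Lip, and 50.4, 67.5 and 65.0 with Lip+ISO. The Lip+ISO libraries lay below all others. With ISO alone the difference of -0.23 ± 0.10 had an adjusted p of 0.11 and did not pass, although the ISO and DMSO libraries did not overlap; without Lip+ISO replicate 1 it passed (-0.24, adjusted p = 0.028). Cebpg fell in Lip+ISO against Lip (-0.48 ± 0.10, adjusted p = 0.0034, held in all 15 fits) and in Lip+ISO against ISO (-0.43 ± 0.10, adjusted p = 0.021). The latter call was lost without ISO replicate 2 (0.083), ISO replicate 3 (0.075), the libraries numbered 2 (0.13) or 3 (0.14), and in the fit on both groups alone (0.082).

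Among the EBF genes, Ebf2 fell with ISO with and without the inhibitors, whereas Ebf1 passed only where the inhibitors were present. Ebf2 (NM_001276387, mm9 chr14:67852129-68049789, plus strand) overlaps Gm6878 on the other strand. In the GENCODE M1 annotation 0 of the 4342 exon bases of Ebf2 are shared with other genes. Ebf2 stood at 40.3, 43.8 and 50.9 CPM with DMSO, 22.8, 23.7 and 31.4 with ISO, 34.5, 36.8 and 40.7 with Lip, and 19.4, 16.5 and 16.1 with Lip+ISO. Stimulated and unstimulated libraries did not overlap, and the Lip+ISO libraries lay below the ISO libraries. The changes were -0.79 ± 0.14 for ISO against DMSO (adjusted p = 0.00098) and -1.11 ± 0.14 for Lip+ISO against Lip (adjusted p = 5.4e-05), both held in all 15 fits. Lip+ISO was lower than ISO by -0.58 ± 0.14 (adjusted p = 0.019), a call lost without ISO replicate 3 (0.079), Lip+ISO replicate 2 (0.063), Lip+ISO replicate 3 (0.079), the libraries numbered 2 (0.17) or 3 (0.15), and in the fit on both groups alone (0.064).

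Ebf1 (NM_007897, mm9 chr11:44431602-44821598, plus strand) was at 165, 157 and 169 CPM with DMSO and 161, 132 and 151 with ISO, which overlapped (-0.14, 95% interval -0.34 to 0.05, adjusted p = 0.27). With Lip it was at 164, 153 and 138 CPM and with Lip+ISO at 112, 99.8 and 109 CPM, the lowest of the 4 groups. It fell by 0.51 on the log2 scale in Lip+ISO against Lip (SE 0.09, adjusted p = 0.001, held in all 15 fits). In Lip+ISO against ISO the fall was -0.47 ± 0.09 (adjusted p = 0.0059), which was lost without the libraries numbered 2 (0.065) or 3 (0.076). The difference between the changes of Ebf1 with and without inhibitors was itself tested and did not pass (-0.37 ± 0.13, adjusted p = 0.21). The ratio of Ebf2 to Ebf1 per kb was 0.259 ± 0.0274 with DMSO, 0.166 ± 0.0308 with ISO, 0.234 ± 0.0404 with Lip and 0.153 ± 0.0120 with Lip+ISO. It was lower with ISO in both comparisons, by -0.66 and -0.60 on the log2 scale (exact permutation p = 0.1 each).

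Zfp423 (NM_033327, mm9 chr8:90185709-90483494, minus strand) fell with ISO with and without the inhibitors, and the changes differed by -0.06 (interaction, 95% interval -0.39 to 0.26). It was at 64.3, 55.5 and 56.3 CPM with DMSO, 48.0, 40.6 and 43.1 with ISO, 64.8, 56.8 and 55.3 with Lip, and 48.0, 40.2 and 38.1 with Lip+ISO. The ISO libraries lay below the DMSO libraries and the Lip+ISO libraries below the Lip libraries. The changes were -0.42 ± 0.11 (adjusted p = 0.012) and -0.49 ± 0.11 (adjusted p = 0.0044). The first was lost without DMSO replicate 1 (0.059), ISO replicate 2 (0.056) or the libraries numbered 2 (0.11) or 3 (0.072), and the second without those numbered 2 (0.067). Between Lip+ISO and ISO the difference was -0.06, with a 95% interval of -0.29 to 0.17. Ebf2, Zfp423 and Cebpb transcripts also occur in preadipocytes. The progenitor marker sum was 761 to 1008 CPM with ISO against 385 to 678 with DMSO, and 467 to 646 with Lip+ISO against 506 to 546 with Lip, and its part in the differences of these members was not tested.

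Stat5a and Stat5b are neighbors, 8.77 kb apart on chromosome 11 (mm9 chr11:100720665-100746483, plus strand, NM_011488, and chr11:100642045-100711899, minus strand, NM_001113563). Stat5a fell with ISO with and without the inhibitors, and the changes differed by -0.14 (interaction, 95% interval -0.45 to 0.16). It was at 87.3, 74.9 and 82.3 CPM with DMSO, 26.7, 24.4 and 28.7 with ISO, 93.4, 82.7 and 86.4 with Lip, and 26.3, 22.7 and 28.5 with Lip+ISO. The highest stimulated library, at 28.7 CPM, lay far below the lowest unstimulated one, at 74.9 CPM. The fall was 3.07-fold in ISO against DMSO (log2 -1.62 ± 0.10, adjusted p = 3.2e-07) and 3.39-fold in Lip+ISO against Lip (log2 -1.76 ± 0.10, adjusted p = 7.4e-08), and both held in all 15 fits. Lip+ISO and ISO differed by -0.04 (95% interval -0.26 to 0.18). In the annotation 72 of 7133 exon bases of Stat5a are shared with Stat3 on the other strand.

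Stat5b was at 63.0, 59.5 and 56.0 CPM with DMSO, 44.7, 45.6 and 39.3 with ISO, 68.9, 66.9 and 62.1 with Lip, and 61.9, 49.8 and 44.5 with Lip+ISO. The ISO libraries lay below the DMSO libraries, and Lip+ISO replicate 1 nearly reached the lowest Lip library. The fall was -0.46 ± 0.11 with ISO alone (adjusted p = 0.0093), lost without the libraries numbered 2 (0.079). In Lip+ISO against Lip it was -0.34 ± 0.11 (adjusted p = 0.037). This call was lost without Lip replicate 1 (0.14), Lip replicate 2 (0.086), Lip+ISO replicate 2 (0.13), Lip+ISO replicate 3 (0.15), the libraries numbered 2 (0.27) or 3 (0.12), under RLE scaling (0.059) and in the fit on both groups alone (0.096). Of the 3839 words of 50 bases in the counted Stat5a transcript, 608 (15.8%) also occur in Stat5b, so reads from those stretches could be assigned to either gene.

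The ratio of Stat5a to Stat5b per kb was 1.75, 1.60 and 1.86 with DMSO and 0.756, 0.677 and 0.925 with ISO. It was 1.72, 1.56 and 1.76 with Lip and 0.539, 0.577 and 0.810 with Lip+ISO. Stat5a thus stood above Stat5b per kb in all 6 unstimulated libraries and below it in all 6 stimulated ones. The log2 ratio differed by -1.15 in ISO against DMSO and -1.41 in Lip+ISO against Lip, each with an exact permutation p of 0.1 (0.2 after adjustment over the 12 ratio comparisons). Between Lip and DMSO it differed by -0.05 (exact permutation p = 0.6).

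**Figure D4:**
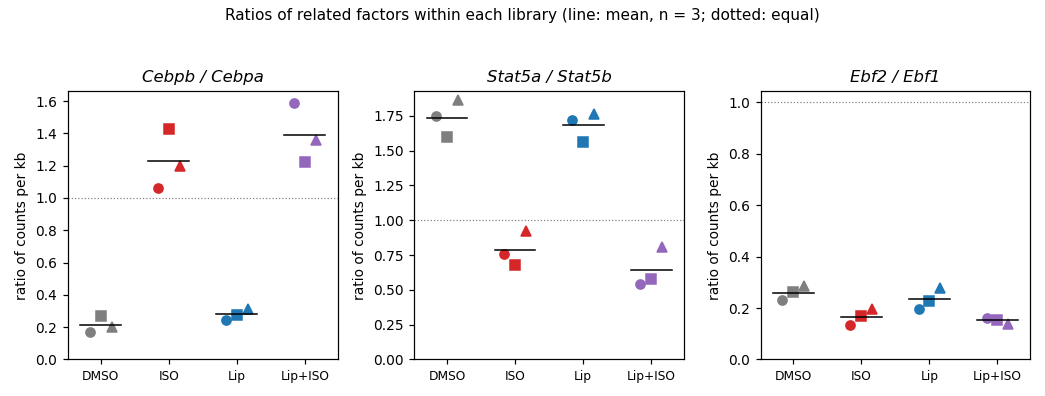
Ratio of counts per kb (vertical axes, starting at 0) of Cebpb to Cebpa, Stat5a to Stat5b and Ebf2 to Ebf1 in every library; lines are group means (n = 3) and the dotted line marks equal levels. The first 2 ratios lie on opposite sides of 1 in the libraries with and without ISO, and the third is 0.133 to 0.195 with ISO or Lip+ISO and 0.197 to 0.284 with DMSO or Lip.

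The inhibitors alone were compared with vehicle in Lip against DMSO, where 0 of 9 members passed, at a background of 0.00738% of genes higher and 0.0443% lower, 1 of 9 had an unadjusted p under 0.05, and DESeq2 also called 0. That member was Cebpd, 0.39 ± 0.13 higher with an adjusted p of 0.78. The share of all genes at an unadjusted p under 0.05 is not given here. Cebpd was higher and Cebpg lower without overlap of the libraries, which is 2 of 9 members against 10.4% of all genes.

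In Lip+ISO against ISO, which asks what lipase inhibition changes in stimulated cells, Cebpd was higher and Cebpa, Cebpg, Ebf1 and Ebf2 were lower. These are 1 and 4 of 9 members, against 4.36% and 4.59% of all genes, and none reached 1 log2 unit. In the same comparison 3 of the 10 fibroblast and progenitor markers were lower (Pdgfra, Col1a1 and Col3a1), with a median over the list of -0.72 and sums of 467 to 646 CPM with Lip+ISO against 761 to 1008 with ISO. Of the 10 endothelial markers 1 was lower, Cldn5, with a list median of -0.79 and sums of 102 to 299 against 302 to 545 CPM. These markers moved in the same direction as the 4 members that were lower, and their part in those differences was not tested. The libraries did not overlap for 5 members and for 25.4% of all genes, and the members' median was -0.40, against -0.01 over all genes. Cebpb, Zfp423, Stat5a and Stat5b did not pass (adjusted p = 0.19, 0.79, 0.85 and 0.17). Omitting the libraries numbered 2 or those numbered 3 each left 1 of the 5 calls, that of Cebpd. The test of whether the change with ISO differed between cells with and without inhibitors (the interaction) called 0 of 9 members, where 0.901% of all genes passed higher and 0.724% lower. Unadjusted p-values were under 0.05 for Cebpb, Cebpd and Ebf1. The share of all genes at that unadjusted threshold is not given here. DESeq2 also called 0, and the fit with the replicate block called 1, Cebpa (-0.43, adjusted p = 0.0473). The interaction estimates were -0.63 ± 0.25 for Cebpb (adjusted p = 0.28) and 0.43 ± 0.18 for Cebpd (adjusted p = 0.32).

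Of 16 partners and regulators of C/EBP proteins tested, 4 were higher and 2 lower in ISO against DMSO (median 0.17, against 0.00 over all genes), where 12.3% of all genes were higher and 13.9% lower. In Lip+ISO against Lip 6 were higher and 2 lower (median 0.17), against 11.5% and 15.8% of all genes. Nfil3, a leucine zipper repressor, rose from 62.2 ± 4.12 to 354 ± 75.8 CPM (log2 2.51, adjusted p = 2.2e-07). Trib1, an adaptor that leads C/EBPα to degradation, rose from 105 ± 6.09 to 226 ± 31.7 CPM (log2 1.1, adjusted p = 0.0001). Atf4, a leucine zipper factor that can pair with C/EBP proteins, rose by 0.86 (adjusted p = 0.00027). Of the 16, 1 passed in Lip+ISO against ISO, where 4.36% of all genes were higher and 4.59% lower. This was Trib3, a relative of Trib1, higher by 1.21 (adjusted p = 4.1e-05).

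Of 18 fat cell genes listed as C/EBP targets, 2 were higher and 4 lower with ISO (median -0.17). Over all genes 12.3% were higher and 13.9% lower. Adrb3, the β3-adrenergic receptor, fell from 183 ± 46.1 to 28.8 ± 7.27 CPM (log2 -2.67, adjusted p = 3.9e-06). Lep, encoding leptin, fell from 147 ± 34.8 to 41.3 ± 15.6 CPM (log2 -1.84, adjusted p = 0.00019). Cidea, at a low level, rose from 1.84 ± 0.713 to 4.37 ± 1.52 CPM (log2 1.23, adjusted p = 0.014). That call was lost in 3 of the 15 fits with libraries left out. In Lip+ISO against Lip Cidea rose by 2.00 (adjusted p = 0.0004). With the inhibitors present throughout, in Lip+ISO against Lip, 4 of the 18 were higher and 3 lower (median 0.03), against 11.5% and 15.8% of all genes. Between Lip+ISO and ISO, 1 was higher and 2 lower, against 4.36% and 4.59% of all genes. Agpat2, an enzyme of triacylglycerol synthesis, was lower (-0.77, adjusted p = 0.00082). Acly was higher (0.45, adjusted p = 0.028), a call lost in 7 of the 15 fits with libraries left out.

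The other adipogenic transcription factors moved both ways. Of 24 tested, 5 were higher and 8 lower with ISO (median 0.05), against 12.3% and 13.9% of all genes. In Lip+ISO against Lip 3 were higher and 7 lower, against 11.5% and 15.8%. In Lip+ISO against ISO 2 were higher and 4 lower, against 4.36% and 4.59%. Klf4, an early adipogenic factor, rose from 38.3 ± 8.59 to 703 ± 122 CPM (log2 4.20, adjusted p = 3.1e-07). Egr2, which acts early upstream of Cebpb in fat cell formation, rose by 1.47 in ISO against DMSO (adjusted p = 0.0015). In Lip+ISO against Lip the change of Egr2 was 0.20 and did not pass (adjusted p = 0.65). The difference between these changes of Egr2, the interaction, did not pass either (-1.27 ± 0.37, adjusted p = 0.13). Egr2 was lower with Lip+ISO than with ISO (-1.42, adjusted p = 0.0048), a call lost without the libraries numbered 1 (0.055). Srebf1, a lipogenic factor, was lower with Lip+ISO than with ISO (-0.88, adjusted p = 5.5e-05).

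On the STAT5 side, 1 of 12 upstream receptors and kinases was higher and 3 were lower with ISO (median -0.07), against 12.3% and 13.9% of all genes. In Lip+ISO against Lip 0 were higher and 2 lower, against 11.5% and 15.8%. In Lip+ISO against ISO 1 was higher and 1 lower, against 4.36% and 4.59%. Tyk2, a Janus kinase, fell from 28.6 ± 2.32 to 19.3 ± 1.14 CPM (log2 -0.57, adjusted p = 0.0063). Among 11 STAT5 target genes 3 were higher and 1 lower with ISO (median 0.48). In Lip+ISO against Lip 2 were higher and 1 lower, and so it was in Lip+ISO against ISO. The same shares of all genes stand beside these counts. Pim1, a kinase, rose by 3.12 (adjusted p = 1.4e-06) and Socs3, a feedback inhibitor of JAK kinases, by 2.19 (adjusted p = 7.8e-08). Socs3 and Pim1 are also induced by other STAT proteins. Of the other 4 STAT genes tested, 0 were higher and 1 lower with ISO, against 12.3% and 13.9% of all genes. The lower one was Stat2 (-1.14, adjusted p = 0.0013). In Lip+ISO against Lip 2 were higher and 2 lower, against 11.5% and 15.8%. In Lip+ISO against ISO 1 was higher and 0 lower, against 4.36% and 4.59%. The higher one was Stat3 (0.51, adjusted p = 0.0047), a call lost without the libraries numbered 2 (0.056) or 3 (0.091).

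Of 15 partners and targets of EBF and ZFP423, 1 was higher and 4 were lower with ISO (median -0.01), against 12.3% and 13.9% of all genes. In Lip+ISO against Lip 2 were higher and 4 lower, against 11.5% and 15.8%. In Lip+ISO against ISO 3 were higher and 1 lower, against 4.36% and 4.59%. Ppargc1a, a coactivator of the thermogenic program, rose from 7.86 ± 1.84 to 108 ± 27.7 CPM (log2 3.79, adjusted p = 7.8e-08). Id3, an inhibitor of helix-loop-helix factors, fell by 0.86 on the log2 scale (adjusted p = 0.00047), and Id2, of the same family, was higher by 0.92 with Lip+ISO than with ISO (adjusted p = 0.0049).

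The non-member genes whose log2 CPM followed each member most closely over the 12 libraries were described by Pearson's r, over points that share the 4 groups. For Stat5a these were Pik3r1 (0.993), a regulatory subunit of PI3 kinase, Ubxn7 (0.993) and Amigo1 (0.992). For Cebpb they were Dusp5 (0.980), a MAP kinase phosphatase, Vasn (0.973) and Hsp90ab1 (0.971), and for Cebpa Net1 (0.973), Ldb3 (0.969) and Klc4 (0.958). Ebf2 was closest to Sipa1l3 (0.981), Mkl2 (0.976) and Smad2 (0.976), and Zfp423 to Gprin3 (0.979), Foxo1 (0.979) and Nudt13 (0.978). The closest gene was Lbr for Cebpg (0.987), Zbtb16 for Ebf1 (0.966), Ap3s2 for Stat5b (0.947) and Hist1h2ad for Cebpd (0.920).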

How the data were processed

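RNA-seq of 12 libraries (4 groups of 3, as the titles label them) was analysed. Values were raw counts per gene as deposited, which the authors made, per their methods, by mapping to mm9 with STAR (2.4.2a), summarizing tags with HOMER at 1 read per position per length, and counting per RefSeq gene with iRNA-seq. How that limit acted here is not given in the sources used here: Cebpa had 29.2 counts per counted base in DMSO replicate 1. Strand use is not stated. Totals ran from 22632220 to 43707557 counts per library.

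Counts were fitted in R 4.3.3 with edgeR 4.0.16 (quasi-likelihood F-test, filterByExpr, TMM, 1 mean per group, all 12 libraries), with Benjamini-Hochberg adjustment over 13543 genes. DESeq2 1.42.0, other scalings, no filter, the replicate block, libraries left out and the groups compared alone were tried. Ratios used the deposited counted lengths and exact two-sided permutation tests. Adjusted p-values after omissions are given in parentheses.

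The replicate numbers did not meet the criterion for pairing (17 of 18 same-number correlations of deviations were over 0.1, the lowest 0.0373), so the fit has no block. The members and lists were chosen with earlier results of these data known. All 9 members are named; from each of 7 gene lists up to 3 genes with the largest passing change in ISO against DMSO or Lip+ISO against ISO could be named, as could the 3 genes most correlated with each member. Promoter letters are from RefSeq (GRCm38.p6), and positions and overlaps from the mm9 table and GENCODE M1.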

Additional observations from a re-analysis of the deposited data

Results flagged for a closer look

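The change with ISO differed between cells with and without lipase inhibitors, by the interaction term in edgeR, for 4 genes of the lists around the 9 factors. They were 1 higher and 1 lower of 24 other adipogenic factors, 1 higher of 16 C/EBP partners and regulators, and 1 higher of 11 STAT5 targets. Over all genes 0.901% were higher and 0.724% lower. The 4 genes are described here because they passed. For Socs3 the interaction was 1.52 on the log2 scale (adjusted p = 0.00042): it rose by 2.19 in ISO against DMSO and by 3.70 in Lip+ISO against Lip. Trib3 showed an interaction of 1.18 (adjusted p = 0.0027), with rises of 0.83 and 2.01. For Pparg, the master regulator of fat cells, the interaction was 0.58 (adjusted p = 0.027), with -0.46 in ISO against DMSO (adjusted p = 0.0017) and 0.13 in Lip+ISO against Lip (adjusted p = 0.31). For Klf6, a Krüppel-like factor, it was -0.46 (adjusted p = 0.035), with -0.05 (adjusted p = 0.64) and -0.51 (adjusted p = 0.00013). Pparg and Klf6 were chosen after their values were seen, and their interaction was lost in 11 and 13 of the 15 fits with libraries left out. For Socs3 and Trib3 the interaction with libraries left out is not given here. No member passed this test in the fit without the replicate block.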

How the results depend on the processing

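The numbers of members past the test in ISO against DMSO, Lip+ISO against Lip, Lip against DMSO and Lip+ISO against ISO were 6, 9, 0 and 5 with edgeR and with DESeq2. Requiring 1 log2 unit left 2, 3, 0 and 0, and the groups compared alone left 2 in Lip+ISO against ISO, where fewer libraries estimate the spread. With libraries left out the first and the last ran from 3 to 7 and from 1 to 5. In Lip+ISO against Lip, Cebpd, Zfp423 and Stat5b were lost without the libraries numbered 2. Cebpd and Stat5b were lost without those numbered 3. In the same comparison Stat5b was lost under RLE scaling and with the groups compared alone, and Cebpd with library totals alone. Cebpd in ISO against DMSO, near 0, turned to -0.03 with library totals alone and to -0.01 without the filter, and ran from -0.11 to 0.12 with libraries left out. Zfp423 in Lip against DMSO turned to -0.0000 without the filter. Differences that did not pass and changed sign with libraries left out were Zfp423 in Lip against DMSO (-0.08 to 0.08), in Lip+ISO against ISO (-0.16 to 0.02) and in the interaction (-0.17 to 0.03), Stat5a in Lip+ISO against ISO (-0.10 to 0.05) and the interaction of Stat5b (-0.02 to 0.24). The cause was not tested. The replicate numbers are shared by the groups, and 12 of 12 libraries were on average closest to their own number, a hint from the data and not the design. With the replicate block 1 member passed the interaction, Cebpa (-0.43, adjusted p = 0.0473), Cebpg passed in ISO against DMSO (0.0311) and Stat5b in Lip+ISO against ISO (0.0324); no other call of a member changed. With 3 libraries a group, small differences could not be told from 0.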
